A study of Homo sapiens with 6 samples.

Results

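The BCL2 family decides whether a cell opens its mitochondrial outer membrane and dies by apoptosis. In this account it was represented by 10 genes taken by name: the guardians BCL2, BCL2L1 (the gene of BCL-XL) and MCL1, the effectors BAX and BAK1, and the BH3-only genes BID, BAD, BMF, BCL2L11 (the gene of BIM) and PMAIP1 (the gene of NOXA). All 10 were found among the 26485 gene symbols counted, and all 10 passed the filter on low counts that left 12107 genes for testing. RNA sequencing had been done on 6 libraries of H9, an established human T lymphoma cell line labelled as cutaneous T lymphocytes. In 3 libraries the cells had been given the vehicle DMSO (control), and in 3 they had been given PA4 at 1 µM, a code-named compound that the series title calls a berbamine derivative. Both groups were treated for 24 h. The series describes PA4 as inducing cell death in these cells and compares expression profiles to ask how, and the family's transcripts are 1 part of that question.

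Guardians bind and hold back the effectors and the activating BH3-only proteins. Effectors, once released, form pores through which cytochrome c leaves the mitochondrion and sets off the caspases. BH3-only proteins carry stress signals: some engage effectors directly and all of them occupy the groove of guardians. Lymphoid cells are known for depending on particular guardians, and much of the family's control acts on the proteins, by phosphorylation, cleavage and turnover, which RNA counts do not show.

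Library totals ranged from 18282212 to 22875191 counts. Nothing in the labels states that replicates were grown as separate cultures. P-values therefore reflect only how far these libraries vary, a variation that may be technical. The label of T cells held for the T cell receptor complex: CD3E had 2099 to 2529 counts per library, while CD4 had 6 to 12 and CD2 at most 1. Of the 14 T cell markers 11 had a mean of 10 counts or more, and their summed level was 1016 to 1079 CPM (counts scaled to library size) in control and 1001 to 1050 CPM in PA4 libraries. Among markers of other cells, the stem cell genes NANOG, SOX2, DPPA4 and ZFP42, the fibroblast genes COL1A2, COL3A1 and DCN, the myeloid genes CSF1R and FCGR3A, the natural killer gene NCR1 and the epithelial gene KRT14 had 0 counts in every library. Other markers of these lists were present: the natural killer gene GNLY had 126 to 169 counts per library, the fibroblast gene COL1A1 had 12 to 26 counts and the myeloid gene CD68 had 8 to 28. The natural killer list summed to 7.72 to 8.39 CPM in control and 6.90 to 8.37 CPM with PA4, the myeloid list to 1.09 to 1.79 and 0.822 to 1.58 CPM, and the fibroblast list to 0.63 to 1.04 and 0.792 to 1.23 CPM. The summed epithelial list stood at 133 to 136.7 CPM in control and 140.5 to 142.4 CPM with PA4, with 94% of it from EPCAM, and the B cell list stood at 18.5 to 21.9 and 19.5 to 21.5 CPM.

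The proteins share the BH3 motif, the helix by which BH3-only proteins occupy the groove of guardians. It is shown here as the coding DNA because guardians, effectors and BH3-only proteins all carry it, which does not make its use the same in each. In the coding sequence of each gene a script looked for a leucine codon, 3 codons of any kind, a codon for glycine, alanine or serine, and an aspartate codon. All 10 genes held it. The sequences below run from 4 codons before the leucine to 3 codons after the aspartate, 5′ to 3′ on the coding strand, with the leucine and aspartate codons in capitals. They are GENCODE release 29 transcripts on GRCh38, and each stretch lies within 1 coding exon.
BCL2, chr18:63318352-63318390, minus strand: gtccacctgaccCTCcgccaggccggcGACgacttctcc
BCL2L1, chr20:31721925-31721963, minus strand: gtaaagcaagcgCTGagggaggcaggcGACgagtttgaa
MCL1, chr1:150578868-150578906, minus strand: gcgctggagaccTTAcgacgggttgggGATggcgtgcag
BAX, chr19:48955775-48955813, plus strand: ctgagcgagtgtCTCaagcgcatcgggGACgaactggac
BAK1, chr6:33575390-33575428, minus strand: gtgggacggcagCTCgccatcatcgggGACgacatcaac
BID, chr22:17739418-17739456, minus strand: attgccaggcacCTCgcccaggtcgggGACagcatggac
BAD, chr11:64271625-64271663, minus strand: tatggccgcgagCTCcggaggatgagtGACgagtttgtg
BMF, chr15:40104198-40104236, minus strand: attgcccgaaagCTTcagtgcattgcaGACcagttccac
BCL2L11, chr2:111150091-111150129, plus strand: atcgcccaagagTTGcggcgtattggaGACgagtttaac
PMAIP1, chr18:59902661-59902699, plus strand: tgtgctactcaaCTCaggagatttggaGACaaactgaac

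The codon before the aspartate was glycine in 8 of the 10 genes, serine in BAD and alanine in BMF. The pattern alone does not mark the family, since 35.3% of 19570 other protein-coding genes held it in their longest coding sequence. BID had a second match, with serine before the aspartate, which is not shown because the match with glycine was chosen. The PMAIP1 match came from a coding sequence of 54 codons that is not the longest annotated for that gene. By the rule of the longest coding sequence used for the other genes, PMAIP1 would not have matched. Both BMF and BCL2L11 proteins are known to be held at the cytoskeleton by dynein light chains.

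Without treatment the family was led by 2 guardians and 1 BH3-only gene. Levels between genes are given as TPM, which divides counts by the deposited gene length before scaling each library to the same total. BCL2L1, which protects many lymphoid cells, had 231, 221 and 215 TPM in the 3 control libraries. PMAIP1, a BH3-only gene whose protein binds MCL1, had 168, 186 and 189 TPM. MCL1, a guardian with a short-lived protein, had 124.9, 121.6 and 128.3 TPM. These genes stood above 93.6%, 91.7% and 87.2% of all tested genes by TPM.

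Below them BCL2L11, an activator of the effectors, had 71.9, 72.3 and 74.1 TPM. The effector BAK1 followed at 68.3, 61.4 and 57.8 TPM, BID, which links death receptors to mitochondria, at 64.2, 58.8 and 59.9 TPM, and the effector BAX at 69.3, 57.9 and 52.0 TPM. The library ranges of BAK1, BID and BAX overlapped, so their order among themselves was not resolved, whereas every other neighbouring pair in the order had separate ranges. BAD, whose protein is held in the cytosol when phosphorylated by survival kinases, had 38.7, 30.1 and 24.6 TPM. BCL2, the founding guardian, stood ninth at 16.6, 17.7 and 17.0 TPM, and its mean of 17.1 ± 0.524 TPM (SD, n = 3) lay above 42.4% of tested genes. BMF, a BH3-only gene, was lowest at 3.61, 3.72 and 3.57 TPM, above 17.7% of tested genes.

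**Figure D1:**
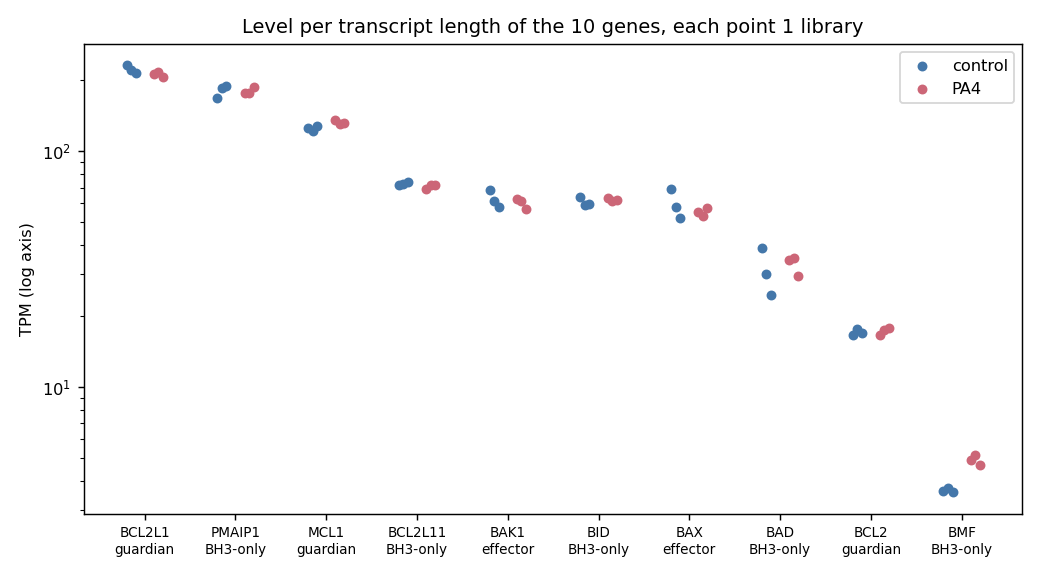
Level of each of the 10 genes in TPM on a log axis, ordered by the control mean, with 1 point for each library and control and PA4 side by side. BCL2L1, PMAIP1 and MCL1 lie above 120 TPM and BMF lies below 6 TPM in all 6 libraries.

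The same 4 genes led with PA4, at 211.4 ± 5.69 TPM for BCL2L1, 179.8 ± 6.18 TPM for PMAIP1, 132 ± 2.87 TPM for MCL1 and 70.8 ± 1.72 TPM for BCL2L11 (SD, n = 3 each). BCL2 and BMF were again the ninth and the tenth, at 17.3 ± 0.595 and 4.90 ± 0.235 TPM. Taking the length of the longest GENCODE transcript instead of the deposited length kept these places in both groups and put BID ahead of BAK1 in control. Counts were made per gene symbol, so the long and short splice forms of BCL2L1, MCL1 and BCL2L11, some of which act in opposite directions, are summed in these levels.

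Some of these levels rest on exons that lie opposite another gene, and the sources used here do not say whether strand was used in counting or how reads on 2 genes were handled. Of the exon bases of BCL2L1, 43% lie under the antisense gene ABALON, which had 4 to 11 counts per library. For BAD 23.7% lie under GPR137, with 177 to 285 counts, for BCL2L11 10.9% lie under MIR4435-2HG, with 58 to 100 counts, and for BAK1 4.11% lie under GGNBP1, with at most 1 count. BMF shares 8.46% with BMF-AS1, a symbol absent from the deposited counts, so the level of that antisense gene could not be read. In MCL1 the overlap was 2 bases, and the other members had none. In GRCh38.p14 the genes lie on 9 chromosomes, BCL2 and PMAIP1 both on chromosome 18, at 63123346 to 63320090 and 59899996 to 59904305, and BMF on chromosome 15 at 40087890 to 40108879.

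Summed by role, guardians and BH3-only genes were near each other and effectors were lower. These sums depend on how many genes were listed per role as well as on the level of each gene. They leave out other family genes, such as the BH3-only gene BIK, with a mean of 17.95 TPM in control. In control the 3 guardians summed to 364.5 ± 7.18 TPM, the 5 BH3-only genes to 349.4 ± 2.34 TPM and the 2 effectors to 122 ± 14.1 TPM (SD, n = 3 each). With PA4 the sums were 360.9 ± 5.31, 351 ± 3.61 and 115.6 ± 2.21 TPM. Effectors were thus 16.1%, 14.4% and 13.4% of the summed TPM of the listed genes in the control libraries. In the PA4 libraries they were 14.2%, 13.8% and 13.8%, so the groups overlapped. The log2 ratio of effectors to guardians was -1.58 ± 0.14 in control and -1.64 ± 0.023 with PA4, and that of BH3-only genes to guardians was -0.061 ± 0.038 and -0.040 ± 0.036 (SD, n = 3 each). With longest-transcript lengths the last ratio changed sign in control, to 0.019, so guardians and BH3-only genes cannot be ordered by these sums.

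**Figure D2:**
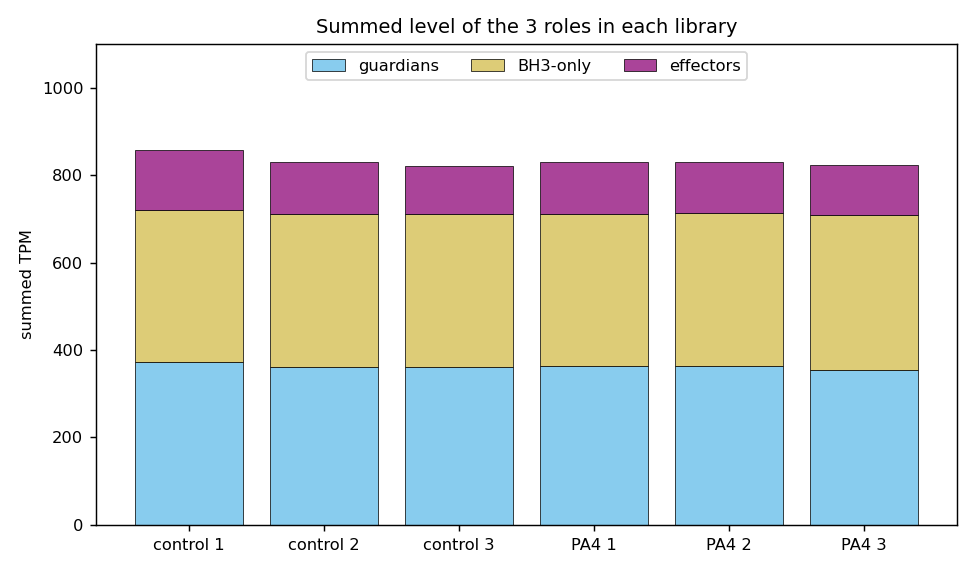
Summed TPM of guardians, BH3-only genes and effectors, stacked, for each of the 3 control and 3 PA4 libraries. The stacks are 821 to 857 TPM high in control and 824 to 829.7 TPM with PA4.

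Within the guardians, BCL2L1 made up 62.0%, 61.3% and 59.7% of the summed TPM in control and 58.2%, 59.6% and 58.0% with PA4. MCL1 made up 33.5%, 33.8% and 35.6% in control and 37.3%, 35.7% and 37.0% with PA4. Each PA4 library thus had a smaller BCL2L1 share and a larger MCL1 share than each control library, although the closest BCL2L1 shares, 59.7% and 59.6%, and the closest MCL1 shares, 35.6% and 35.7%, nearly met. With so little BCL2 in the sum, the BCL2L1 and MCL1 shares nearly mirror each other and are not separate observations. In CPM the groups of BCL2L1 overlapped, and 11.2% of all tested genes had groups apart in either direction. BCL2 contributed 4.69% ± 0.221 in control and 4.78% ± 0.219 with PA4 (SD, n = 3 each). Within the BH3-only genes, PMAIP1 took 51.8% ± 2.81, BCL2L11 20.8% ± 0.259, BID 17.5% ± 0.924 and BAD 8.91% ± 2.10 of the sum in control. BMF took 1.04% ± 0.0219 in control and 1.396% ± 0.077 with PA4, so the gene with the largest change was also the smallest part of its group.

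Against this baseline PA4 moved no member past the threshold. In edgeR's quasi-likelihood test 0 of the 10 genes were called at an adjusted p under 0.05, where the background over all tested genes was 0.231%. At an unadjusted p under 0.05 the count was 2 of 10 in edgeR, BMF and MCL1, where the background was 5.29%. Both were higher with PA4, where 2.69% of all tested genes were higher at that p. The count of called members was also 0 with DESeq2 and with limma-voom. In 3 members the library ranges of the groups did not overlap in CPM, BMF and MCL1 being higher with PA4 and BCL2L11 lower. The background was 11.2% in either direction and 5.91% for higher. In TPM the groups of BCL2L11 overlapped. The median log2 fold change of the 10 genes was 0.0028, with 5 positive and 5 negative, against -0.0040 for all tested genes.

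BMF had the largest difference of the 10. Its level was 6.63, 6.81 and 6.46 CPM in the control libraries and 8.96, 9.39 and 8.49 CPM in the PA4 libraries, from 123 to 131 and 155 to 214 counts. Every PA4 library lay above every control library, and the gap between the groups was wider than the spread within either. The fold change was 1.35 with a 95% interval of 1.17 to 1.57, or 0.43 ± 0.10 log2 (SE), with an edgeR adjusted p of 0.1425. By p-value BMF ranked 44 among the 12107 genes, where 28 were called. The gene was called with no low-count filter, at an adjusted p of 0.0477, and with offsets that remove each library's trend with GC content, at 0.0274, or 0.0325 when these were joined with a block for the replicate number. The GC settings were chosen after the data were seen. The adjusted p over all 14 alternatives ran from 0.0274 to 0.848, while the log2 fold change stayed between 0.40 and 0.47.

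**Figure D3:**
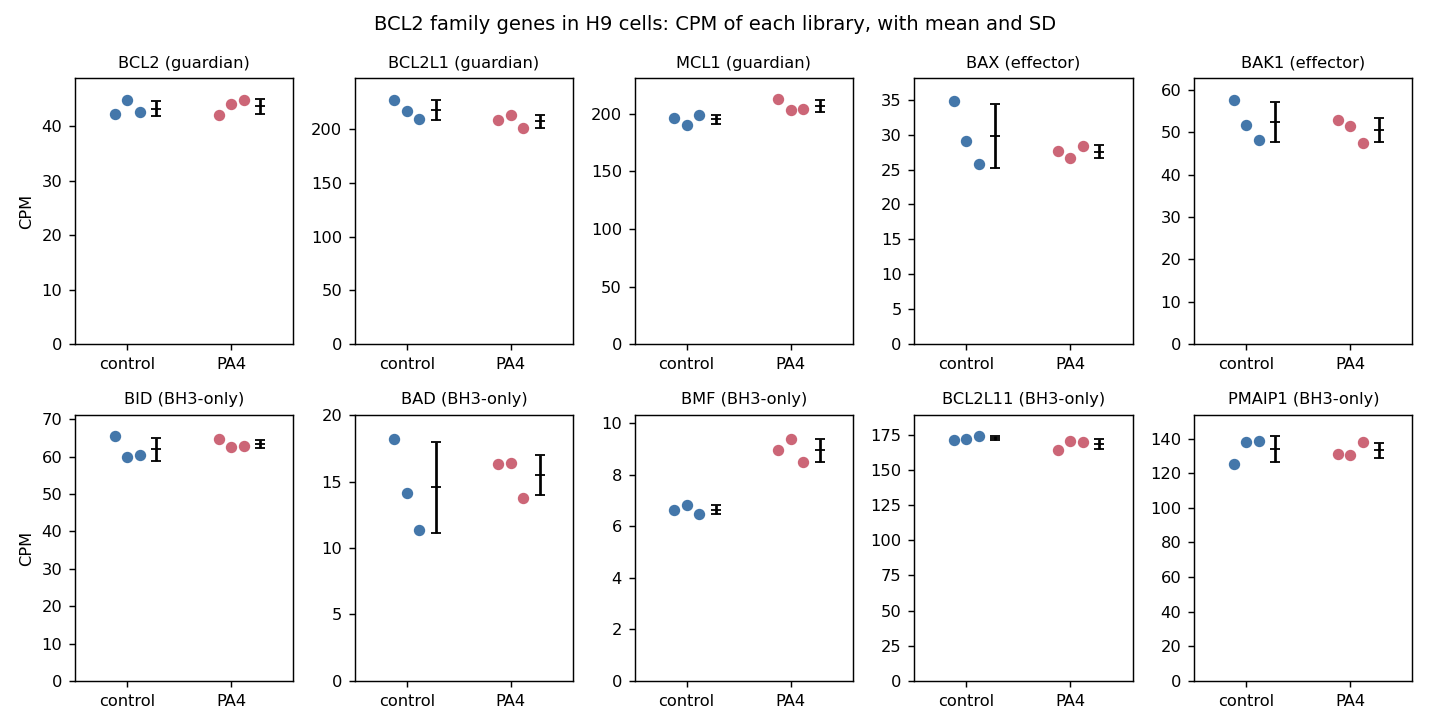
CPM of the 10 genes in each library, with 1 panel per gene, axes that start at 0, and the mean and SD beside the points of each group. The BMF points lie at 8.49 to 9.39 CPM with PA4 and 6.46 to 6.81 CPM in control, and the groups are also apart in MCL1 and BCL2L11, by smaller steps relative to their levels.

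The guardians stayed close to their control levels. MCL1 had 196, 190.6 and 198.8 CPM in control and 212.5, 203 and 204.4 CPM with PA4, so its groups were apart by a small step. Its fold change was 1.06, with a 95% interval of 1.00 to 1.12 and an adjusted p of 0.9202 (unadjusted 0.0365). BCL2L1 had 227, 217 and 209 CPM in control and 208, 212.5 and 200.5 CPM with PA4, and the groups overlapped. Its fold change was 0.951, with an interval of 0.898 to 1.01 and an adjusted p of 0.9629. BCL2 had 42.3, 44.9 and 42.6 CPM in control and 42.2, 44.1 and 44.8 CPM with PA4. The interval of its fold change was 0.932 to 1.09, which holds both a small decrease and a small increase.

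The effectors were the members whose control libraries varied most after BAD. BAX, which moves from the cytosol to mitochondria when activated, had 34.7, 29.01 and 25.7 CPM in control and 27.7, 26.6 and 28.4 CPM with PA4, so all 3 PA4 libraries lay inside the control range. Its log2 fold change was -0.12 ± 0.09 (SE), with an interval of -0.30 to 0.070. BAK1, which sits in the mitochondrial membrane, had 57.5, 51.6 and 48.1 CPM in control and 52.9, 51.5 and 47.5 CPM with PA4, and the log2 fold change was -0.049 ± 0.065 (SE). Without control replicate 1 the values became 0.0067 for BAX and 0.024 for BAK1, and without control replicate 3 they became -0.21 and -0.11, with edgeR adjusted p-values of 0.3604 and 0.6234.

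The difference between control replicates 1 and 3 went with the base composition of the transcripts. Which of these libraries departed from the others was not tested. Across 11438 tested genes with a GENCODE match, the log2 difference between control replicates 1 and 3 had a Spearman rho of 0.638 with the GC content of the longest transcript, and genes are not independent replicates. Replicate 1 minus replicate 3 was 0.67 log2 for BAD, 0.43 for BAX and 0.26 for BAK1, whose longest transcripts have 66.3%, 58.9% and 58.8% GC. It was -0.15 for PMAIP1, with 37.2% GC, and -0.020 for MCL1, with 45.1%. The remaining members were at 0.12 for BCL2L1 (56.9% GC), 0.038 for BMF (54.8%) and 0.12 for BID (49.7%). BCL2L11 (45.7%) was at -0.025 and BCL2 (45.6%) at -0.0093. BMF thus differed less between these libraries than BID did, at a higher GC content. With GC-corrected offsets the log2 fold changes were -0.11 ± 0.06 for BAX, -0.043 ± 0.043 for BAK1 and 0.12 ± 0.08 for BAD (SE), and none of the 3 was called.

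Among the other BH3-only genes BCL2L11 was measured most tightly. It had 171.5, 172.3 and 174.5 CPM in control and 164.2, 170.8 and 169.8 CPM with PA4. Each PA4 library was below each control library in CPM, although the closest values, 171.5 and 170.8, nearly met. In TPM the groups overlapped, with 71.88 in control replicate 1 and 71.9 in PA4 replicate 2. The step was 0.974-fold with an interval of 0.924 to 1.03, and the adjusted p was 0.9927. PMAIP1 had 125, 138 and 138.5 CPM in control and 131, 130.5 and 138 CPM with PA4, with overlapping groups and an interval of 0.93 to 1.06 for the fold change. BID had 65.6, 60.1 and 60.4 CPM in control and 64.8, 62.6 and 62.96 CPM with PA4, and its interval was 0.95 to 1.10. BAD had 18.2, 14.1 and 11.4 CPM in control and 16.3, 16.4 and 13.8 CPM with PA4. Its control libraries spanned more than its PA4 libraries, and the interval of its fold change was 0.883 to 1.29.

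**Figure D4:**
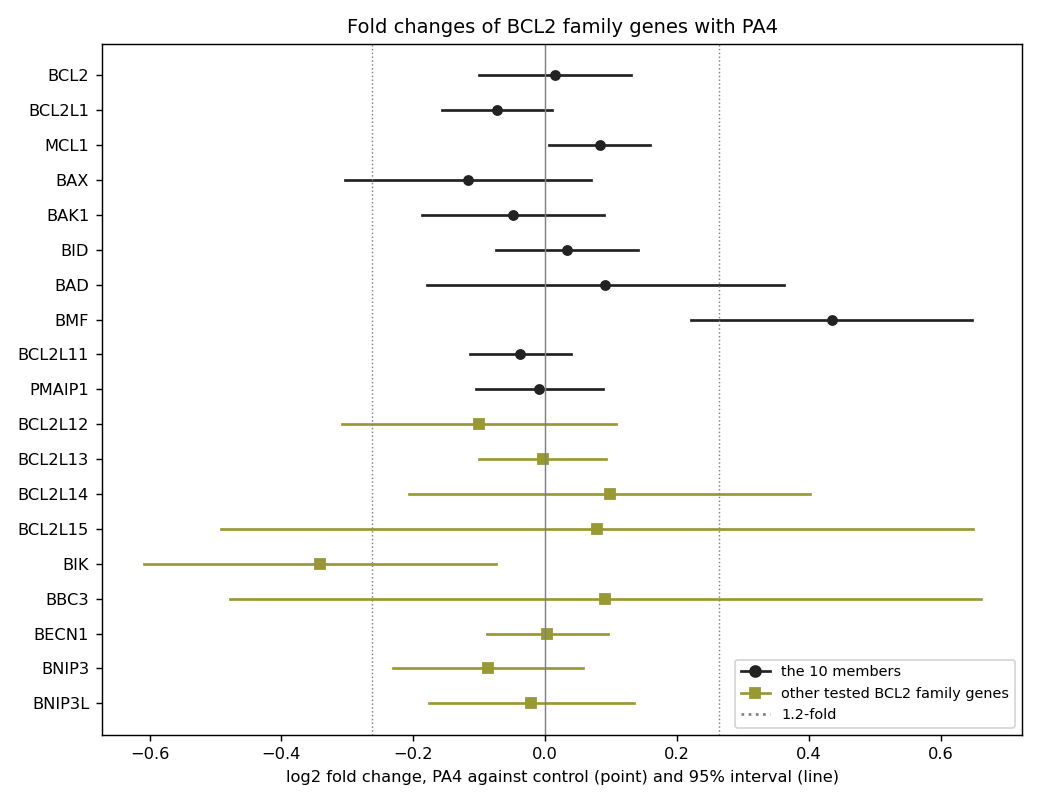
Log2 fold change of PA4 against control with its 95% interval for the 10 members (circles) and 9 other tested genes of the family (squares), with dotted lines at 1.2-fold. BMF lies at 0.43, and the intervals of 7 of the 10 members lie between the dotted lines.

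Like the p-values, the intervals reflect only how far these libraries vary, a variation that may be technical. They therefore do not bound the change that separate cultures would show. For 7 of the 10 members the 95% interval lay within 1.2-fold in both directions, against 63.7% of all tested genes, and for 9 it lay within 1.5-fold, against 87.1%. The members outside the narrower bound were BMF, BAD and BAX, which have the lowest CPM of the 10.

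**Figure D5:**
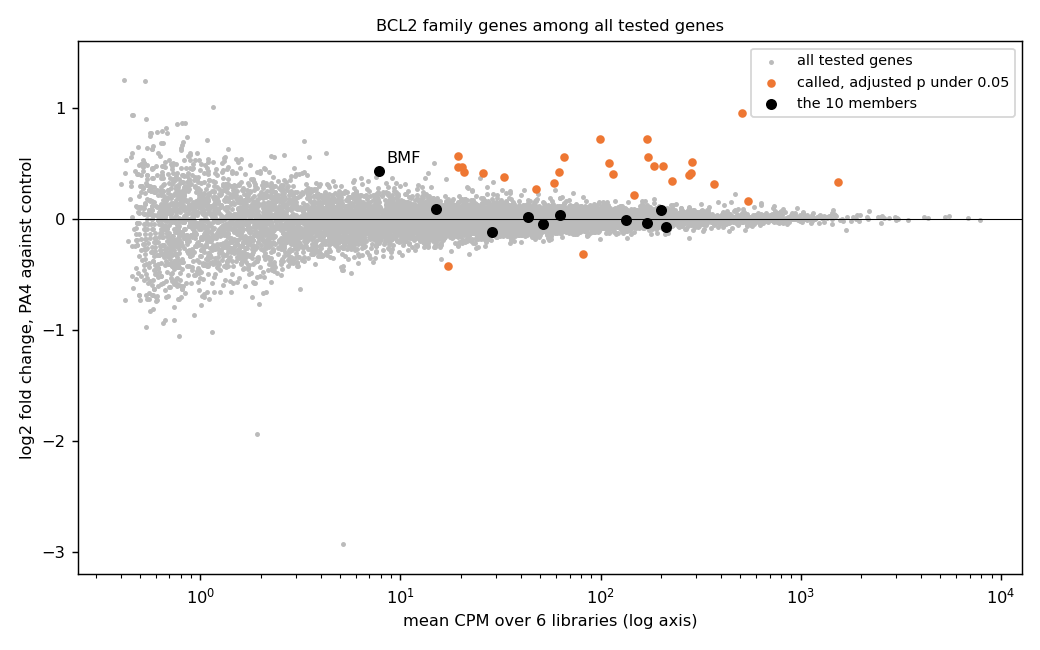
Log2 fold change against mean CPM on a log axis for all 12107 tested genes, with the 28 called genes in orange and the 10 family members in black. BMF lies at 0.43 and was not called, and the other 9 members lie between -0.12 and 0.092.

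A window upstream of BMF is printed beside that of BCL2L11, because the proteins share the dynein tether. The pair was also picked by value, BMF having the highest and BCL2L11 the lowest log2 fold change of the BH3-only genes. The fold interval of BCL2L11, 0.924 to 1.03, held both a decrease and an increase, so opposite responses are not shown. Both windows are the 250 bases before a RefSeq start in GRCh38.p14, 5′ to 3′ on the gene's strand. Capitals mark matches on either strand to GGGCGG (a GC box), the box CCAAT, the core of FOXO binding, GTAAACA, and the E-box CACGTG.
BMF, chr15:40108880-40109129, minus strand: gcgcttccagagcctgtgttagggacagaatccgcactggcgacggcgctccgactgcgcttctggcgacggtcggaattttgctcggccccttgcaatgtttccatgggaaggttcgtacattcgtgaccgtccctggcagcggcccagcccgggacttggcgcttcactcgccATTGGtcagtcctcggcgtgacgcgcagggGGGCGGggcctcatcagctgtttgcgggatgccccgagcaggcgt
BCL2L11, chr2:111120664-111120913, plus strand: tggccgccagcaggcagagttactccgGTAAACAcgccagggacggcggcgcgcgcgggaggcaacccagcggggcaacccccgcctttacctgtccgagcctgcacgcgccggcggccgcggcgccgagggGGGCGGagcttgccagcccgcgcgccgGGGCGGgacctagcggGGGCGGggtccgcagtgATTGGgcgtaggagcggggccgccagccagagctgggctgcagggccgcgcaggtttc

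RefSeq gives BMF a second start, whose window held none of these 4 motifs and is not printed. The BMF window printed held 1 GC box and 1 CCAAT match, and the BCL2L11 window held 3 GC boxes, 1 CCAAT match and 1 GTAAACA match. No motif overlapped another in these 2 windows. Of 35116 windows of that length, 42.6% held GGGCGG, 32% CCAAT, 2.98% GTAAACA and 6.34% CACGTG. Among the 16 windows of the 10 members, GTAAACA was found only in that of BCL2L11, and CACGTG in 3 windows, of BAX and BID. The BID windows with CACGTG overlap and hold the same match, so windows of 1 gene are not independent. BAX had 4 CACGTG matches in its window. The sterol element TCACCCCAC, in 0.362% of all windows, matched none of the 16. Whether any of these motifs bears on the levels of BMF or BCL2L11 was not tested.

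By likeness of profile, the 5 genes among 8564 with a mean of 10 CPM or more that followed BMF most closely over the 6 libraries were PON2, VCL, FTH1, TSC22D3 and KIF2C, with Pearson r of 0.997, 0.997, 0.993, 0.990 and 0.989. An r above 0.95 was reached by 41 genes. The 6 libraries are those of the treatment comparison, so r mostly repeats which genes were higher with PA4. Of the 5, TSC22D3 was called, with means of 17.05 CPM in control libraries and 23.5 CPM in PA4 libraries and an edgeR adjusted p of 0.00497.

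Of 14 further family genes 5 were too low to test: the guardians BCL2A1, BCL2L2 and BCL2L10 had at most 4 counts in any library, the effector relative BOK at most 2 and the BH3-only gene HRK at most 6. BCL2L2 overlaps the readthrough gene BCL2L2-PABPN1, which had 0 counts in every library, and reads on both may not have been counted. In edgeR, DESeq2 and limma-voom 0 of the 9 tested were called, where the edgeR background over all tested genes was 0.231%. At an unadjusted p under 0.05 in edgeR there was 1, where the background was 5.29%. That gene was BIK, a BH3-only gene of the endoplasmic reticulum. It had 141, 122 and 114 counts in control and 102, 130 and 85 with PA4. Its log2 fold change was -0.34 ± 0.13 (SE), with an edgeR adjusted p of 0.7942. Its PA4 libraries lay below the control libraries in CPM, where 11.2% of all tested genes had groups apart in either direction. BBC3, the gene of PUMA, a potent BH3-only protein, had 19 to 43 counts per library and a log2 fold change of 0.091 ± 0.269 (SE). The other 7 were BCL2L12 at -0.10 ± 0.10, BCL2L13 at -0.0039 ± 0.0452, BCL2L14 at 0.098 ± 0.144, BCL2L15 at 0.079 ± 0.269, BECN1 at 0.0032 ± 0.0435, BNIP3 at -0.087 ± 0.068 and BNIP3L at -0.021 ± 0.073 log2 (SE). The last 3 act in autophagy and in the removal of mitochondria. Of these 9 genes 4 had an interval within 1.2-fold and 6 within 1.5-fold, against 63.7% and 87.1% of all tested genes, and BIK, BBC3 and BCL2L15 were the 3 outside the wider bound.

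Downstream of the pore, in the list of channels, released factors, caspases and their inhibitors, 0 of 20 tested genes were called in edgeR, DESeq2 or limma-voom. An unadjusted p under 0.05 in edgeR was reached by 0. The edgeR shares over all tested genes were 0.231% and 5.29%. The median log2 fold change of the 20 genes was 0.00059. CASP9, the caspase of the apoptosome, had the smallest p, at -0.34 ± 0.21 log2 (SE) from 28 to 59 counts per library. XIAP, which blocks caspases, was at 0.072 ± 0.053 log2 (SE) and CASP8 at 0.077 ± 0.059. CYCS, the gene of cytochrome c itself, was at 0.015 ± 0.041.

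Of 22 tested transcription regulators of the family 1 rose, 0 fell and 21 were not called, with a median of 0.019 log2. Over all tested genes 0.231% were called in edgeR. The list was chosen with earlier results of these data known, so this count says nothing about the regulators as a set. The gene that rose was TSC22D3, a glucocorticoid-induced regulator, by 0.46 ± 0.07 log2 (SE), and it was called in all 15 fits, DESeq2 and limma-voom included, at an adjusted p of at most 0.0498. The stress factor ATF3, at 0.46 ± 0.18 log2 (SE), and ETS1, a lymphoid factor, at -0.090 ± 0.034, had unadjusted p-values of 0.0192 and 0.0177 in edgeR and adjusted p-values of 0.8286 and 0.8269. FOXO3, a known activator of BCL2L11 transcription, was at 0.083 ± 0.042 log2 (SE). DDIT3, which can repress BCL2 under stress of the endoplasmic reticulum, was at 0.10 ± 0.13.

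Of 29 tested regulators that act on the proteins, 0 were called in edgeR, DESeq2 or limma-voom, where the edgeR background was 0.231%. At an unadjusted p under 0.05 in edgeR there was 1, where the background was 5.29%. The median was 0.011 log2. That gene was PIM2, a kinase that can phosphorylate BAD, at 0.12 ± 0.06 log2 (SE), whose adjusted p was 0.9432. Its relative PIM1 was at -0.10 ± 0.05, and MARCHF5, a mitochondrial ubiquitin ligase, at -0.090 ± 0.050. The dynein light chain genes DYNLL1 and DYNLL2, which tether BIM and BMF, were at 0.017 ± 0.035 and 0.066 ± 0.043. HUWE1, a ligase for MCL1, was at 0.000285 ± 0.0320, and USP9X, which removes ubiquitin from MCL1, at 0.0035 ± 0.0421.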

How the data were processed

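The authors deposited raw counts of reads per gene symbol for 6 libraries, with gene lengths in bases. Reads had been processed, per the submitters' processing notes, with Trimmomatic 0.39, fastp 0.23.2, STAR 2.7.9a and featureCounts of Subread 1.6.4, on hg38 (GRCh38). The sources used here give no annotation, strand setting or treatment of multi-mapped reads. Libraries of polyadenylated RNA were grouped by the treatment label, 3 per group. With edgeR 4.0.16 in R 4.3.3, genes were kept by filterByExpr, scaled by TMM and tested two-sided with glmQLFit and glmQLFTest, without covariates. P-values were adjusted over 12107 genes by Benjamini-Hochberg, and genes were called under 0.05. CPM use TMM-scaled totals, and TPM use deposited lengths over all genes. Standard errors derive from the F statistic. The procedure was tested on simulated counts. These were drawn gene by gene without a GC trend, so GC-linked differences between libraries were not covered. Alternatives were DESeq2 1.42.0, limma 3.58.1 (voom), other scalings, no filter, a replicate block, GC-corrected offsets and leaving out libraries. Every pair of libraries differed beyond sampling noise (chi-square per degree of freedom 1.48 to 6.81).

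The members and lists were chosen with earlier results of these data known. Named genes were all members, the other tested family genes, called list genes, up to 3 with the smallest unadjusted p per list, and the 5 most like BMF. CYCS, FOXO3, DDIT3, DYNLL1, DYNLL2, HUWE1 and USP9X lie outside this rule and were chosen for their known roles after values were seen. MARCHF5 was matched by an older symbol. Upstream windows come from RefSeq, which matched all 10 members with 16 windows.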

Additional observations from a re-analysis of the deposited data

How the results depend on the processing

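Over 14 alternative fits the 10 members gave 140 values, of which 128 kept both direction and side of the threshold. BMF passed in 3 fits, as reported above. Signs changed in 9, all in fits that leave out 1 library: BCL2 at -0.0018 (control replicate 1 left out) and -0.0013 (PA4 replicate 3 left out), BAX at 0.0067 and BAK1 at 0.024 without control replicate 1, BAD at -0.056 without control replicate 3, and PMAIP1 at 0.013, 0.016, 0.0038 and 0.0084 without control replicates 2 and 3 and PA4 replicates 1 and 2 in that order. Over these fits BCL2 reached 0.042, BAX -0.21, BAK1 -0.11, BAD 0.28 and PMAIP1 -0.056 at the other end. The number of members called was 0, and became 1 with no low-count filter, 1 with GC-corrected offsets and 1 with both GC-corrected offsets and the replicate block, that gene being BMF each time. It was 0 with the replicate block alone and 0 to 0 in fits that leave out 1 library.

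Over all genes 28 were called, against 62 with no low-count filter, 59 with the replicate block, 98 with GC-corrected offsets, 122 with both, and 17 to 74 when 1 library was left out. Leaving out control replicate 2 gave 17, PA4 replicate 1 gave 18 and control replicate 1 gave 74. The cause was not tested. Libraries with the same number deviated from their group means with correlations of 0.0249, -0.00843 and 0.126, so the numbers were not taken to pair the libraries. The log2 ratio of BH3-only genes to guardians in control, -0.061, became 0.019 with the longest transcript lengths, which changes only the divisor of each count. The widest standard errors among the members were 0.13 log2 for BAD, from 217 to 374 counts per library, and 0.10 log2 for BMF, from 123 to 214.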
